A study of Mus spretus with 8 samples.

Results

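The cytochrome P450 monooxygenases of the Cyp2d, Cyp2e, Cyp2f, Cyp2j and Cyp2u subfamilies were examined in mouse liver after dietary exposure to p,p'-DDE, a long-lived metabolite that forms from the insecticide DDT. The members were 9 genes chosen by symbol, Cyp2d9, Cyp2d10, Cyp2d22, Cyp2d26, Cyp2e1, Cyp2f2, Cyp2j5, Cyp2j6 and Cyp2u1, and all probes carrying one of these symbols were used. They had 12 probes of the 42957 on the array, which named 22471 genes in all. Cyp2e1, Cyp2j6 and Cyp2u1 had 2 probes each and the other 6 genes had 1. The livers came from male Mus spretus of the inbred strain SPRET/EiJ. In the DDE group 4 mice, aged 7 weeks, ate Harlan diet with p,p'-DDE dissolved in corn oil at 450 mg/kg for 30 days. In the control group 4 mice ate the diet with corn oil alone, also for 30 days. The labels give no age for the controls. The RNA was whole-liver RNA, so fewer cells of a type and less RNA per cell cannot be told apart. Each sample was 1 single-colour array, and each value below is a log2 signal unless it is called a difference or a fold change.

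Cytochrome P450 enzymes sit in the membrane of the endoplasmic reticulum and use a haem group, molecular oxygen and electrons from NADPH to hydroxylate or epoxidize their substrates. Receptors for foreign compounds, CAR and PXR, switch on mainly the Cyp2a, Cyp2b, Cyp2c and Cyp3a subfamilies in liver, whereas most members studied here are textbook examples of P450 genes kept active by hepatocyte transcription factors, growth hormone or position in the liver lobule. Cyp2d enzymes oxidize basic drugs and steroids, Cyp2e1 oxidizes ethanol and paracetamol, Cyp2f2 activates naphthalene, and Cyp2j and Cyp2u enzymes act on arachidonic acid and other long fatty acids.

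The medians of the arrays were 7.46 to 7.47, and each array reached a highest value of 16. The background level of an array, taken from probes for olfactory and vomeronasal receptors, lay between 7.55 and 7.81. Patches of locally raised or lowered signal, called stained here, were widest on control 4 (9.5% of spots) and DDE 4 (7.59%) and narrowest on DDE 1 (0.521%). Of 8 hepatocyte markers 8 were above background on every array, and 1 of them, Apoa1, was lower after DDE. All of them but Tat had values of 15.9 or more on some or all arrays. Such values are close to the top of the scale and can hide a change. The mean log2 signal over 7 stellate cell and fibroblast markers was 8.96 to 9.44 in controls and 9.30 to 9.98 after DDE, with 1 of 7 past the threshold. That 1 was Reln, whose signal went from 7.24 to 7.62 and exceeded background in 0 controls and 2 DDE livers. With an unadjusted p under 0.05, 4 of these markers were higher, the largest difference being 1.07 for Col3a1, and 1 was lower, Dcn at -0.96. The part of these cells in the results below was not tested. No marker of Kupffer cells (7 measured), endothelial cells (6), cholangiocytes (4), lymphocytes (6) or red blood cells (3) passed in limma. Above background on every array were 4 Kupffer cell, 5 endothelial cell, 0 cholangiocyte, 1 lymphocyte and 3 red blood cell markers. The cholangiocyte and lymphocyte lists therefore say little about the content of these cells. With an unadjusted p under 0.05, 1 Kupffer cell marker was lower and 1 red blood cell marker was higher.

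The 4 DDE livers were compared with the 4 control livers for each member. Cyp2d9 and Cyp2j6 were higher after DDE, by 2.29-fold and 2.02-fold at their brightest probes, and Cyp2u1 was lower, by 2.07-fold. That Cyp2u1 probe is annotated with a complementary DNA clone, and the probe of the reference transcript did not pass (limma adjusted p = 0.455). The other 6 members, Cyp2d10, Cyp2d22, Cyp2d26, Cyp2e1, Cyp2f2 and Cyp2j5, did not pass at an adjusted p of 0.05 in limma. Thus, at the brightest probes, 2 of 9 members rose and 1 of 9 fell. Among all 22471 genes, each by its brightest probe, 3.35% were called (2.58% higher and 0.774% lower), and among the 8542 genes above background on all 8 arrays 7.18% were called (5.68% higher and 1.5% lower). All 9 members belonged to those 8542 genes at their brightest probe. With an unadjusted p under 0.05, 2 members were higher and 2 were lower, or 22.2% each, against 22.9% higher and 7.79% lower among the genes above background on all arrays. The median difference of the 9 members was -0.018 on the log2 scale, against 0.14 for the genes above background on all arrays. That member median is the value of Cyp2d26, whose signals of 15.91 to 16 had no room to rise, so it is no measure of their response. The median size of the difference regardless of sign was 0.44 for the members and 0.37 for those genes. The groups of arrays did not overlap in 4 of the 9 members, Cyp2d9, Cyp2f2, Cyp2j6 and Cyp2u1, and in 21.4% of the genes above background on all arrays.

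**Figure D1:**
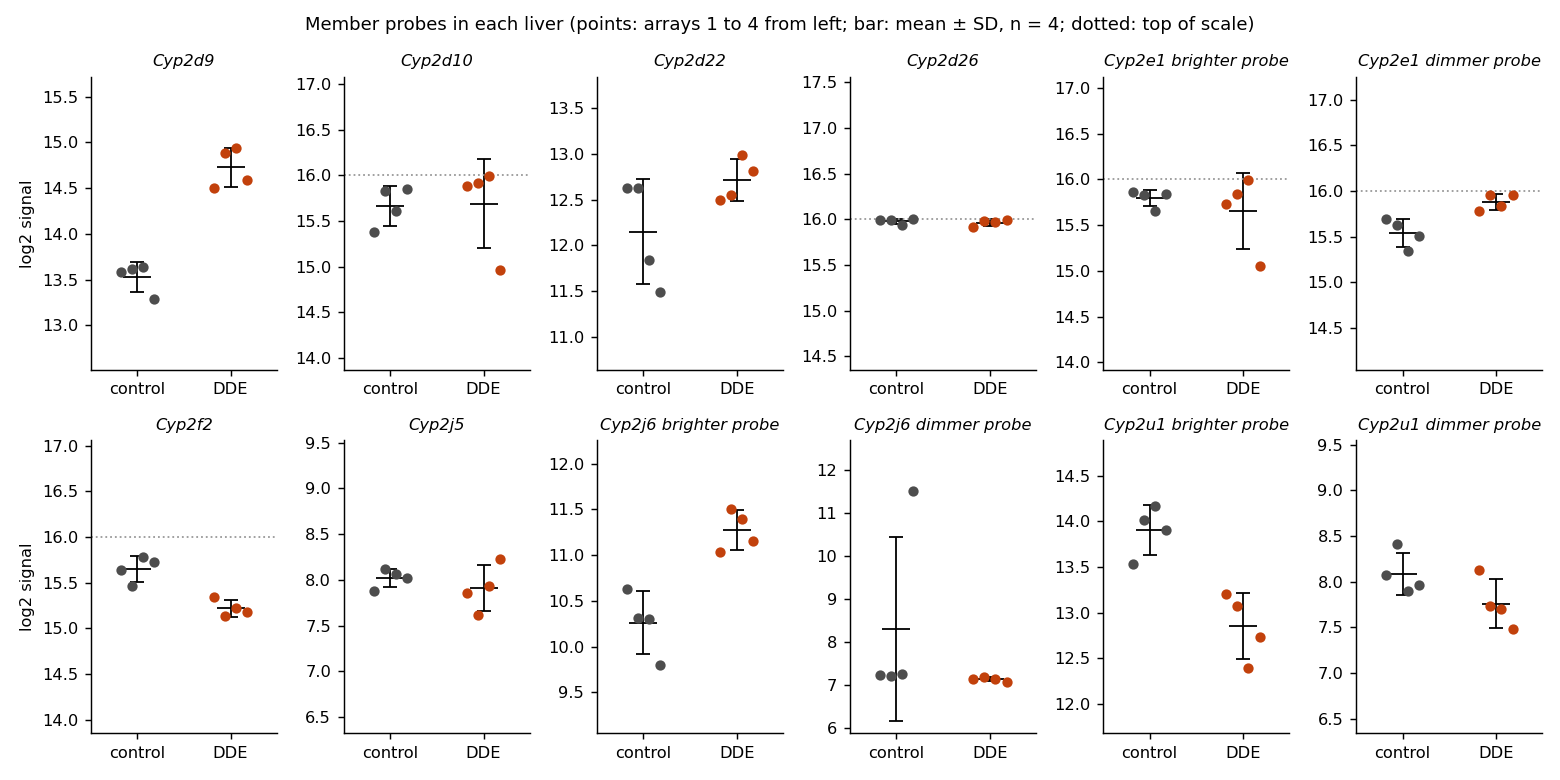
Log2 signal (vertical axis) of each of the 12 member probes in the 4 control and the 4 DDE livers, with points for arrays, bars for mean ± SD and a dotted line at the top of the scale, 16. Every panel spans the same range except that of the dimmer Cyp2j6 probe, where control 4 stands at 11.49 above all other arrays, and the groups are apart for Cyp2d9, Cyp2f2, the dimmer Cyp2e1 probe, the brighter Cyp2u1 probe and both Cyp2j6 probes, of which the dimmer is at background in all but control 4.

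Cyp2d9 encodes a testosterone hydroxylase that is typical of male mouse liver and is maintained there by the pulsed release of growth hormone. Its signal was 13.58, 13.61, 13.64 and 13.29 in controls 1 to 4 and 14.50, 14.88, 14.94 and 14.59 in DDE 1 to 4. The lowest DDE liver lay above the highest control, and all 8 values were well below the scale's upper end. The mean went from 13.53 ± 0.16 to 14.73 ± 0.22 (SD, n = 4 each), a log2 difference of 1.20 ± 0.13 (SE) with a 95% confidence interval of 0.89 to 1.51 (limma adjusted p = 0.00932). The probe ranked 146 by p among all 42957. Its call held in each of the 8 analyses that left out 1 array, with adjusted p from 0.0154 to 0.0406.

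The other Cyp2d members did not pass. Cyp2d10, a Cyp2d enzyme of liver, had 15.38, 15.83, 15.61 and 15.85 in controls and 15.88, 15.92, 15.99 and 14.96 in DDE livers. Its DDE 4 value was the lowest of all 8, while the other 3 DDE livers stood above every control, 2 of them within reach of the upper end of the scale. Its log2 difference was 0.02, with a 95% confidence interval of -0.56 to 0.60 (limma adjusted p = 0.973), and 0.26 without DDE 4. Cyp2d22, often treated as the mouse counterpart of the human debrisoquine hydroxylase, had 12.63, 12.63, 11.84 and 11.49 in controls and 12.50, 12.55, 12.99 and 12.81 after DDE. The controls split into a higher and a lower pair, and the DDE values overlapped the higher pair. The log2 difference of Cyp2d22 was 0.56, with an interval of -0.11 to 1.24 (limma adjusted p = 0.443), so a rise as large as that of Cyp2d9 was inside its interval. Cyp2d26 had 15.99, 15.99, 15.94 and 16 in controls and 15.91, 15.98, 15.97 and 15.99 after DDE. All 8 of its values were at or above 15.9, a level called close to the top of the scale here. Such values leave no room to measure a rise and can hide a fall. Its difference of -0.018 (limma adjusted p = 0.879) therefore does not show how Cyp2d26 responded.

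The 3 remaining Cyp2d members were compared with Cyp2d9 within each array. Such a difference cancels an effect common to an array only where no signal is close to the top of the scale. Cyp2d9 minus the mean of Cyp2d10, Cyp2d22 and Cyp2d26 was -1.09, -1.21, -0.82 and -1.16 in controls and -0.26, 0.063, -0.043 and 0.0033 after DDE. The groups did not overlap, and the difference between them was 1.01 (exact two-sided permutation p = 0.0286, the smallest that 4 against 4 arrays can give, and 0.0429 adjusted over 3 such comparisons). Of the 3 comparison genes, Cyp2d10 and Cyp2d26 had little room to rise. Against Cyp2d22 alone, the 1 of the 3 that is not close to the top of the scale, the values were 0.95, 0.98, 1.80 and 1.80 in controls and 2, 2.33, 1.95 and 1.78 after DDE. Those groups overlapped, with a difference of 0.63 (exact permutation p = 0.0857, adjusted p = 0.129), so an unequal change of Cyp2d9 and Cyp2d22 was not shown. The overlap came through DDE 4 alone, where the Cyp2d22 spot was stained.

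**Figure D2:**
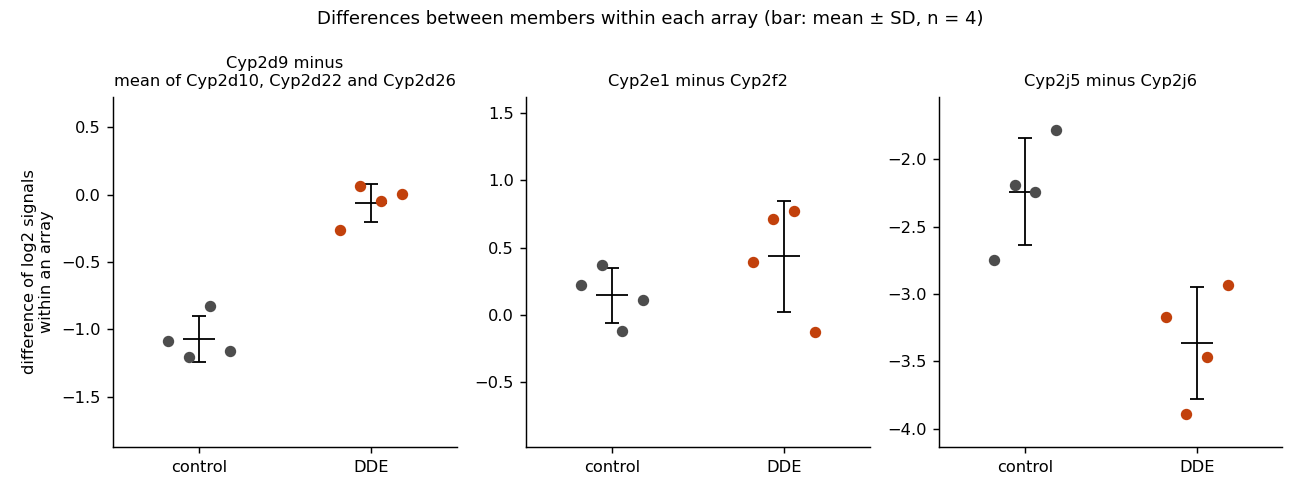
Difference of log2 signals within an array (vertical axis) for 3 comparisons between members, with points for the 4 control and 4 DDE arrays and bars for mean ± SD. Cyp2d9 minus the other Cyp2d members was higher and Cyp2j5 minus Cyp2j6 lower in every DDE array, while Cyp2e1 minus Cyp2f2 overlapped.

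Cyp2e1 and Cyp2f2 mark opposite ends of the liver lobule, since Cyp2e1 is made by hepatocytes around the central vein and Cyp2f2 by those near the portal tract. The brighter probe of Cyp2e1 had 15.86, 15.83, 15.66 and 15.84 in controls and 15.73, 15.84, 15.99 and 15.05 in DDE livers. DDE 4 was far below all other arrays, as it was for Cyp2d10, and the other 3 DDE values lay within or above the control range. The log2 difference was -0.14, with an interval of -0.61 to 0.32 (limma adjusted p = 0.726), and 0.056 without DDE 4 (adjusted p = 0.79). The dimmer probe of Cyp2e1 had 15.69, 15.63, 15.34 and 15.51 in controls and 15.78, 15.95, 15.83 and 15.95 in DDE livers. Here all 4 DDE livers, including the stained spot of DDE 4, were above all controls by a small margin, and 2 of them were within reach of the upper end of the scale. The log2 difference of the dimmer probe was at least 0.34, with an interval from 0.12 to 0.55, and did not pass over all probes (limma adjusted p = 0.124). The 2 probes, annotated with the same transcript, thus differed in sign, and neither showed a fall beyond the spread of the livers.

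Cyp2f2, which is also abundant in the club cells of the airways, had 15.64, 15.46, 15.78 and 15.73 in controls and 15.34, 15.13, 15.22 and 15.18 after DDE. Every DDE liver was below every control. The mean went from 15.65 ± 0.14 to 15.22 ± 0.090, a log2 difference of -0.44 ± 0.090 (SE) with an interval of -0.65 to -0.22. It missed the threshold in limma (adjusted p = 0.0531), with adjusted p from 0.0352 to 0.148 over 18 alternative analyses, of which 2 passed. Of the 2 club cell markers, Scgb3a2 was at background on all 8 arrays. The brightest probe of Scgb1a1 was at background in the controls and in DDE 1 and had 8.28, 8.29 and 15.02 in DDE 2 to 4, with 3 of its spots stained (limma adjusted p = 0.585), and the part of such cells in the Cyp2f2 values was not tested. Cyp2e1 minus Cyp2f2 within an array was 0.22, 0.37, -0.12 and 0.11 in controls and 0.39, 0.71, 0.77 and -0.13 after DDE. The groups overlapped through DDE 4, and the difference of 0.29 did not pass (exact permutation p = 0.257). With the mean of both Cyp2e1 probes it was 0.53 (exact permutation test, adjusted p = 0.0429).

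Cyp2j enzymes form epoxides of arachidonic acid that relax blood vessels and dampen inflammation. Cyp2j5 is known from kidney and liver of house mice. In these livers its probe gave 7.88, 8.12, 8.06 and 8.02 in controls and 7.86, 7.62, 7.93 and 8.23 after DDE, only slightly above background on each array. The groups overlapped, and the log2 difference was -0.11, with an interval of -0.42 to 0.20 (limma adjusted p = 0.688). A signal so near background understates any change. How well this probe binds the Mus spretus transcript was not tested, so the low signal need not mean a low level. The brighter probe of Cyp2j6 had 10.63, 10.31, 10.30 and 9.80 in controls and 11.03, 11.51, 11.40 and 11.16 in DDE livers. All 4 DDE livers were above all controls, from 10.26 ± 0.34 to 11.28 ± 0.22 on average, a log2 difference of 1.02 ± 0.19 (SE) with an interval of 0.57 to 1.46 (limma adjusted p = 0.0411).

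The call on Cyp2j6 is near the threshold. It was lost without control 2 (limma adjusted p = 0.103), control 3 (0.102), DDE 1 (0.0743), DDE 2 (0.119), DDE 3 (0.108) or DDE 4 (0.0596), with log2 differences from 0.86 to 1.14 in the 8 analyses that left out 1 array. The dimmer probe of Cyp2j6 had 7.23, 7.21, 7.24 and 11.49 in controls and 7.14, 7.18, 7.14 and 7.06 after DDE. It was below background everywhere except in control 4, where the spot was stained, and gives no level for Cyp2j6. Averaged with it, the gene's difference was -0.074 (adjusted p = 0.939). Cyp2j5 minus Cyp2j6 at the brightest probes was -2.75, -2.19, -2.24 and -1.78 in controls and -3.17, -3.89, -3.47 and -2.93 after DDE. These groups did not overlap, and the difference was -1.12 (exact permutation p = 0.0286, adjusted p = 0.0429). As Cyp2j5 was close to background, this restates the Cyp2j6 values and does not show how Cyp2j5 itself responded.

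Cyp2u1 encodes a fatty acid hydroxylase that is conserved across vertebrates and is best known from brain and thymus. Its brighter probe, annotated with a complementary DNA clone and not with the reference transcript, had 13.53, 14.01, 14.17 and 13.91 in controls. In DDE livers 1 to 4 it had 13.20, 13.07, 12.40 and 12.74. All DDE livers were below all controls, from 13.90 ± 0.27 to 12.85 ± 0.36 on average, a log2 difference of -1.05 ± 0.21 (SE) with an interval of -1.55 to -0.56 (limma adjusted p = 0.0485). Without 1 array the log2 difference stayed between -1.18 and -0.90, but the call was lost each time. The limma adjusted p was 0.0542, 0.131, 0.123 and 0.089 without controls 1 to 4 and 0.0707, 0.105, 0.0882 and 0.0844 without DDE 1 to 4. The dimmer probe, annotated with the reference transcript of Cyp2u1, had 8.07, 8.41, 7.90 and 7.96 in controls and 8.13, 7.73, 7.70 and 7.48 after DDE. Those groups overlapped, and DDE 4 was below its background. Its difference had the same sign, -0.33 with an interval of -0.72 to 0.069, and did not pass (adjusted p = 0.455). Whether the brighter probe measures the coding transcript of Cyp2u1 was not tested.

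**Figure D3:**
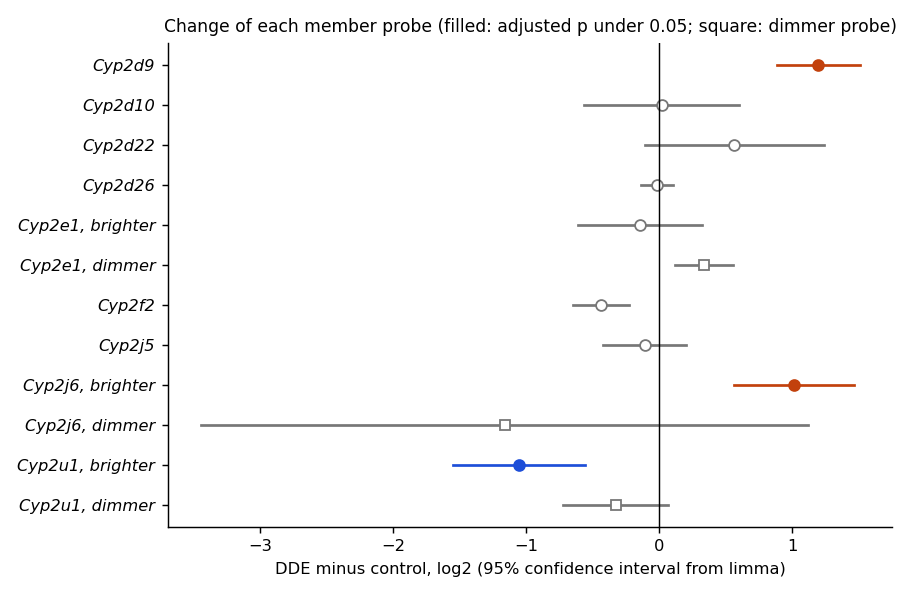
DDE minus control on the log2 scale (horizontal axis) for the 12 member probes, with 95% confidence intervals from limma, filled marks for an adjusted p under 0.05 and squares for dimmer probes. Cyp2d9 at 1.20, the brighter Cyp2j6 probe at 1.02 and the brighter Cyp2u1 probe at -1.05 are the 3 filled marks.

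**Figure D4:**
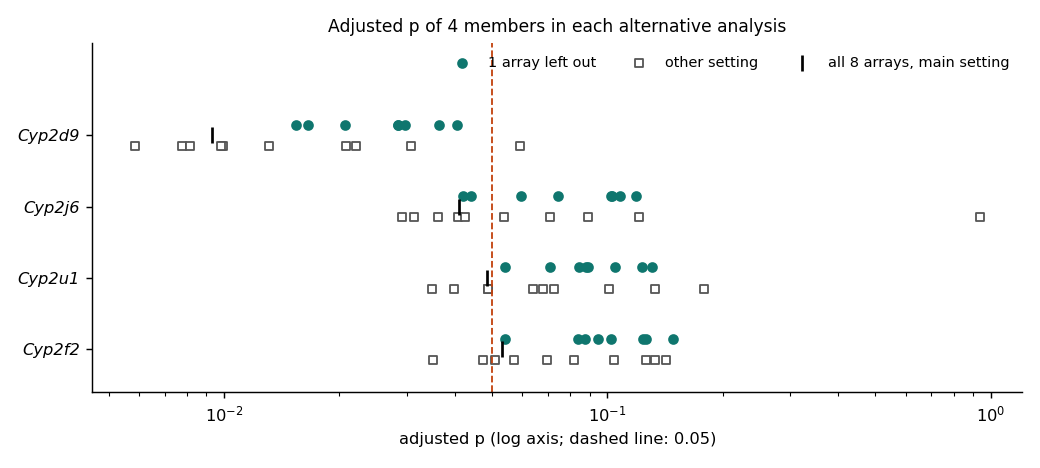
Adjusted p (horizontal log axis) of Cyp2d9, Cyp2j6, Cyp2u1 and Cyp2f2 at their brightest probes in each alternative analysis, with dots for analyses that left out 1 array, squares for other settings and a black bar for the main analysis. All 8 dots of Cyp2d9 are below 0.05, against 2 of those of Cyp2j6 and 0 of those of Cyp2u1 and Cyp2f2.

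Genes with profiles close to those of the called members were sought among 7834 other named genes above background on all arrays, by the mean absolute difference between centred log2 values over the 8 arrays. The search describes these 8 arrays and largely reflects the difference between the 2 groups. Closest to Cyp2d9 were Eif6, a ribosome assembly factor (mean absolute difference 0.060), Tusc3, a subunit of the oligosaccharyltransferase (0.0756), and Vps41, a vesicle tethering protein (0.090). Like Cyp2d9, all 3 had their lowest value in control 4. Closest to Cyp2j6 were Ggcx, the gamma-glutamyl carboxylase of clotting factors (0.0788), Rnf181 (0.0822) and Mthfsl (0.085). Closest to Cyp2u1 were Spag7 (0.119), Utp6 (0.129) and Ccdc138 (0.139).

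Among the 16 other genes of the member subfamilies and of the small Cyp2 subfamilies next to them, 0 passed in limma. With an unadjusted p under 0.05, 3 were higher and 1 was lower. Their median log2 difference was 0.0025. Cyp2j8 had the smallest p, with 11.35 ± 0.30 in controls and 12.06 ± 0.14 after DDE and no overlap between the groups (limma adjusted p = 0.0656). Its other probe, at background except in control 3 at 11.81, had a difference of -1.12. Cyp2d13, close in sequence to the Cyp2d members, had 11.25 ± 0.51 and 12.14 ± 0.32 (adjusted p = 0.171), and Cyp2d11 had 15.91 ± 0.090 and 15.96 ± 0.042, close to the top of the scale. As the transcripts of one subfamily are alike, a probe may bind more than 1 of them, and probe sequences were not used here.

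The classic families gave larger differences. Of 30 Cyp2a, Cyp2b, Cyp2c and Cyp3a genes on the array, 11 rose and 2 fell, and their median log2 difference was 0.57, against -0.018 for the 9 members and 0.015 for all genes with a symbol. Cyp2b10, the standard target of CAR, rose at least 124-fold, and Cyp2c55 and Cyp2b9 rose by 37.3-fold and 24.6-fold as lower bounds, whereas the largest rise among the members was the 2.29-fold of Cyp2d9. The contrast between the classic families and the members was not tested as such.

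**Figure D5:**
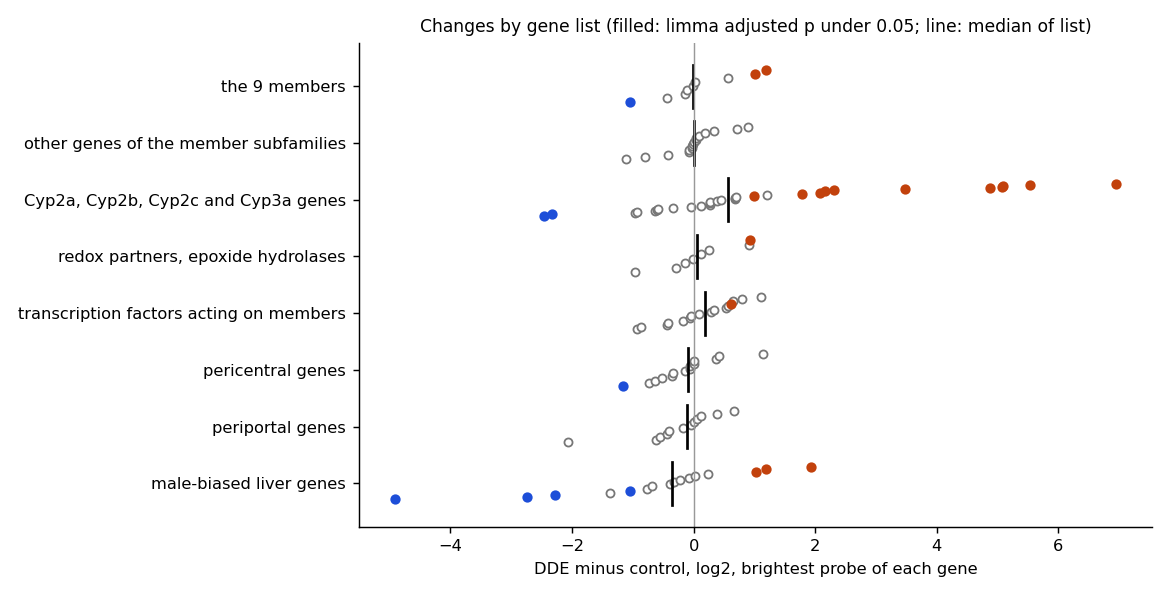
DDE minus control on the log2 scale (horizontal axis) at the brightest probe of each gene, by gene list, with filled points for an adjusted p under 0.05 in limma and a line at the median of each list. The 9 members lie between -1.05 and 1.20, while genes of the Cyp2a, Cyp2b, Cyp2c and Cyp3a families reach 6.96.

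Partners of P450 enzymes were read next. Of 8 genes for redox partners and epoxide hydrolases, 1 rose and 0 fell. Pgrmc1, a haem-binding membrane protein that associates with P450 enzymes, went from 14.46 ± 0.17 to 15.38 ± 0.24 (limma adjusted p = 0.0243). This call was lost without control 2 (adjusted p = 0.0579), control 3 (0.0704), DDE 1 (0.0708) or DDE 2 (0.0817). Ephx2, which hydrolyses the fatty acid epoxides made by Cyp2j enzymes, had 10.83 ± 0.32 in controls and 9.86 ± 0.55 after DDE, without overlap, and did not pass (adjusted p = 0.156). Cyb5a, which passes electrons to P450 enzymes, had 15.40 ± 0.44 and 15.66 ± 0.60. Of 16 transcription factors known to act on member genes, 1 rose and 0 fell. The 1 was Nr1i2, the gene of PXR, from 7.59 ± 0.090 to 8.21 ± 0.11 (adjusted p = 0.0153). Its signal exceeded background in 1 control and in 4 DDE livers, and the call was lost with an intensity trend and robust variance (adjusted p = 0.0903). With an unadjusted p under 0.05, 4 of the 16 were higher, Nr1i2 included, and 2 were lower. The largest of these log2 differences were 1.11 for Ahr (limma adjusted p = 0.147) and -0.93 for Foxa2 (0.262). Hnf4a, which maintains many P450 genes in hepatocytes, had 12.91 ± 0.32 and 12.85 ± 0.36 (adjusted p = 0.911), and Stat5b, which carries the growth hormone signal to Cyp2d9, had 11.01 ± 0.24 and 10.57 ± 0.20 (adjusted p = 0.204).

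Genes that share position in the lobule or male bias with members were counted in the same way. Of 14 pericentral genes, Cyp2e1 included, 1 fell and 0 rose, and of 12 periportal genes, Cyp2f2 included, 0 passed in limma. With an unadjusted p under 0.05, 1 gene was higher and 2 were lower in each of these lists. The pericentral gene that fell was Glul, the glutamine synthetase, from 13.12 ± 0.28 to 11.96 ± 0.12, by 1.16 on the log2 scale (adjusted p = 0.0136). The pericentral gene higher without adjustment was Cyp1a2, whose signal was 12.43 ± 0.56 (SD, n = 4) in control livers against 13.57 ± 0.38 with DDE (limma adjusted p = 0.117). The median log2 difference was -0.10 in the pericentral and -0.11 in the periportal list. Of 16 male-biased liver genes, 3 rose, among them Cyp2d9, and 4 fell, among them Cyp2u1. Hsd3b5, a steroid dehydrogenase, fell at least 22.7-fold, while Cyp4a12a, a fatty acid hydroxylase, rose 2.04-fold and Ugt2b38, a glucuronosyltransferase, rose 3.83-fold. The 2 members on this list therefore moved in opposite directions at their brightest probes. The Cyp2u1 call was lost whenever 1 array was left out, and its dimmer probe did not pass. A list of 15 female-biased genes had 4 higher and 1 lower, with a median of 0.27, and the 4 (Cyp2b9, Cyp2a4, Cyp2c39 and Cyp3a41b) are all among the classic family genes counted above.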

How the data were processed

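RNA from 8 livers was labelled with Cy3 and hybridised to 1-colour arrays, per the labels. The deposited value table holds log2 signals normalized by the authors, whose scanner, background correction, normalization and filters the sources used here do not name. Values were used as deposited. Probes were named by the platform annotation supplied with the data (33009 probes with 1 symbol). All probes were tested together with limma 3.58.1 (lmFit, eBayes) in R 4.3.3 for the contrast of DDE and control, with two-sided p adjusted by the Benjamini-Hochberg method over 42957 probes and a threshold of 0.05. The probe with the highest mean over the 8 arrays stood for a gene. Background was the 0.95 quantile of 1634 olfactory and vomeronasal receptor probes outside stained spots. A spot was stained where the median deviation in 7 rows by 5 columns of the array, with 85 columns taken from the feature order, passed 0.3. Values of 15.9 or more were called close to the top of the scale, and a fold change touching that level or background is a lower bound. The number of arrays limits the precision. A limma p-value weighs the difference between the groups against the spread between arrays of a group, moderated over all probes.

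The members and lists were chosen with earlier results of these data known. Besides the members, genes were named as the top 3 changes among those past the threshold in each list (the smallest p where none passed) and as the 3 closest profiles. Cyp2d13, Cyp2d11, Ephx2, Cyb5a, Hnf4a, Stat5b, Ahr, Foxa2, Cyp4a12a and Ugt2b38 were chosen after their values were seen. So were Scgb3a2, Scgb1a1, Apoa1, Tat, Reln, Col3a1, Dcn, Cyp1a2 and Cyp3a41b, and Nudt7 and Elovl3 appear with the alternatives. Alternatives were other scalings, filters, variance models and weights, leaving out arrays or stained spots, and averaging a gene's probes. The procedure was tested on simulated data.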

Additional observations from a re-analysis of the deposited data

Results flagged for a closer look

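In 4 of the 24 sets of 4 arrays (12 member probes in 2 groups), 1 array stood far from the other 3 by Dixon's test at its 95% level, which chance alone gives in about 1 of 20 sets. For Cyp2d10, DDE 4 had 14.96 against 15.88 to 15.99 in the other DDE livers. For the brighter probe of Cyp2e1, control 3 had 15.66 against 15.83 to 15.86 in the other controls. For Cyp2d26, control 3 had 15.94 against 15.99 to 16, a gap close to the top of the scale. For the dimmer probe of Cyp2j6, control 4 had 11.49 against 7.21 to 7.24, on a stained spot.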

How the results depend on the processing

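With all 8 arrays 1289 probes passed. This count was 511 with an intensity trend and robust variance, 519 with ordinary t statistics and 2140 with array weights. Leaving out 1 array gave 332 to 1596 probes, with 782, 387 and 534 without controls 1, 2 and 3 and 505, 332 and 533 without DDE 1, 2 and 3. The deviations of same-numbered arrays correlated at 0.223, 0.115, 0.118 and -0.0807 for numbers 1 to 4 (0.348, 0.242, 0.209 and -0.119 over probes without stained spots). As number 4 was below 0 and the labels give no pairing, the numbers were not taken as pairs, though the first 3 correlate. The share of stained spots also rose with the number in both groups, from 1.16% to 9.5% in controls and from 0.521% to 7.59% after DDE. Whether same-numbered arrays shared a processing step was not tested. With the replicate number as a block 9 probes passed, and 0 members were higher and 0 lower, with Cyp2d9 at 1.20 (adjusted p = 0.0593), Cyp2j6 at 1.02 (0.121) and Cyp2u1 at -1.05 (0.179), and Nr1i2 was lost too (0.0945). Members called higher numbered 1 (Cyp2d9) with the intensity trend, ordinary t statistics, the mean of a gene's probes, or without control 4 and DDE 4, an alternative added after seeing the data, and 1 to 2 when 1 array was left out. Members called lower numbered 0 with the intensity trend, array weights, the mean of probes, ordinary t statistics, without control 4 and DDE 4 and when any 1 array was left out. They numbered 2 (Cyp2f2 and Cyp2u1) after centring on the 75th percentile, with Cyp2f2 at -0.44 (adjusted p = 0.0473), and without stained spots, with Cyp2f2 at -0.44 (0.0352). Cyp2j6 stayed at 1.02 with the intensity trend and ordinary t statistics (adjusted p = 0.0708 and 0.0888), was 0.90 without control 4 and DDE 4 (0.0538) and -0.074 with the mean of its probes, of which the dimmer is at background, and ranged from 0.86 to 1.14 with 1 array left out. Cyp2u1 stayed at -1.05 with the intensity trend and ordinary t statistics (0.0726 and 0.101), was -0.93 with array weights (0.064), -0.69 with the mean of probes (0.0678) and -1.01 without control 4 and DDE 4 (0.133), and ranged from -1.18 to -0.90 with 1 array left out. Differences that were never called changed sign for Cyp2d10, from -0.081 to 0.26 with 1 array left out. They did so for Cyp2e1, from -0.26 to 0.056 with 1 array left out, and at 0.095 with the mean of probes and 0.070 without control 4 and DDE 4. Cyp2j8, not called with all 8 arrays, passed in 3 of 18 alternative analyses, and the mean of its probes gave -0.20. Cyp2e1 minus Cyp2f2 was 0.53 with the mean of probes, Cyp2j5 minus Cyp2j6 was -0.036 with it, and Cyp2d9 against Cyp2d22 alone, added after seeing the data, was 0.63. Except where stated the cause was not tested. Of 486 values recomputed for 28 results, 377 were classed as unchanged. For counts this meant a change by less than a set factor. For differences within an array it meant, with 1 array left out, a shift below their SD, without a test. For all other values it meant the same direction and the same side of the threshold. Signals close to 16 limit Cyp2d10, Cyp2d26 and Cyp2e1, and signals close to background limit Cyp2j5 and the dimmer probes of Cyp2j6 and Cyp2u1.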

Other observations

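Nudt7, a peroxisomal coenzyme A hydrolase, and Elovl3, which lengthens very long fatty acids, are male-biased genes that fell with Cyp2u1. Nudt7 went from 14.40 ± 0.70 to 11.66 ± 0.94 (n = 4 each, limma adjusted p = 0.0449) and passed in 2 of the 8 analyses that left out 1 array, with adjusted p from 0.0396 to 0.127. It was lost without control 1 (0.097), control 2 (0.123), control 3 (0.114), DDE 2 (0.127), DDE 3 (0.115) or DDE 4 (0.0643). Elovl3 went from 11.42 ± 0.40 to 9.14 ± 0.65 (adjusted p = 0.0238) and was lost without control 1 (0.0581), control 2 (0.0768) or DDE 2 (0.0788).

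Cyp2d34, a Cyp2d gene outside the members, had 2 probes that differed. Its brighter probe changed by -0.070 on the log2 scale (limma adjusted p = 0.89). Its dimmer probe had 11.44, 11.29, 11.63 and 11.39 in controls and 11.83, 12.17, 11.84 and 11.64 in DDE livers, higher in all 4 DDE livers than in any control, with a difference of 0.43 that did not pass (adjusted p = 0.146).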
